A study of Mus musculus with 6 samples.

Results

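The 10 genes described here are core and output genes of the circadian clock, read in tumors of mice that received H89 or NaCl. They are Arntl (also called Bmal1), Clock, Npas2, Per2, Per3, Cry1, Cry2, Nr1d1, Nr1d2 and Dbp, chosen by name from the 23557 genes of the deposited table, and all 10 were found in it. The tumors grew from CT26 cells, a line derived from a colon carcinoma of a BALB/c mouse, and 500000 cells were placed under the skin of female BALB/c mice that were 7 weeks old at purchase. H89, an inhibitor of protein kinase A that also acts on other kinases, was given at 10 mg/kg into the peritoneal cavity 2 times a week from day 6, and control mice received NaCl by the same route. Tumors of 3 NaCl and 3 H89-treated mice were collected 14 days after the cells were injected, and total RNA was sequenced. The hour of collection and the light schedule are not given in the sources used here, so that a difference in hour and a difference between animals cannot be told apart.

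Most mammalian cells run a clock in which the proteins ARNTL and CLOCK, or NPAS2 in place of CLOCK, bind E-box sequences together and switch on the Per, Cry, Nr1d and Dbp genes. PER and CRY proteins then accumulate and repress this pair, while NR1D1 and NR1D2 (REV-ERB alpha and beta) repress Arntl through ROR elements, so that Arntl peaks at about the opposite time of day to Nr1d1 and Dbp. DBP, a PAR bZIP factor, activates genes with D-box sequences such as Per3, and NFIL3 competes with it for the same sequences. In organs outside the brain the phase of the clock follows feeding, glucocorticoids and body temperature, and cAMP signalling through protein kinase A and CREB acts on Per genes through CRE sequences.

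The sequences through which these proteins act were looked up in the promoter windows of RefSeq (assembly GRCm38.p6), which hold 250 bases before and 50 bases after an annotated start and were found for 9 of the 10 genes. Per2 had no window. Both strands were searched for the E-box CACGTG, the D-box TTATGTAA, the ROR element TAGGTCA and the CRE TGACGTCA, of which the E-box and the CRE read the same on both strands. Among the 32851 windows of the assembly, 7.15% held the E-box, 0.938% the D-box, 2.61% the ROR element and 1.79% the CRE. The 250 bases before the start of Per3 and of Cry1 are printed because they held a D-box and an E-box, the sequences that link these genes to DBP and to ARNTL and CLOCK. Each is given 5′ to 3′ on the strand of its gene, which is the minus strand for both, with the motif in capitals.
Per3 (chr4:151044666-151044915): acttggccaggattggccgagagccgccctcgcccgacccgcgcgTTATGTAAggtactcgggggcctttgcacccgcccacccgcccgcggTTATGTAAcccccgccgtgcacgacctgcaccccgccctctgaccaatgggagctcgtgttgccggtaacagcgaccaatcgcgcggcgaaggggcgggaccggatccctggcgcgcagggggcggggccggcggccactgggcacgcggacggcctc
Cry1 (chr10:85185055-85185304): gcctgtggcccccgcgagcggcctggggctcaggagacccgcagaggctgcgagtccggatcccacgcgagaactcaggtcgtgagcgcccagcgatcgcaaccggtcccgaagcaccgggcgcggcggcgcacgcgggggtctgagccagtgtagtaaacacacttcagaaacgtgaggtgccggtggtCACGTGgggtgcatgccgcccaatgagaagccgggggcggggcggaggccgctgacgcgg

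Per3 held 2 D-boxes, which began 205 and 158 bases before its start, and Cry1 held 1 E-box, which began 60 bases before its start. Arntl, the target of NR1D1 and NR1D2, held 1 ROR element, on the plus strand just after the start numbered 2 of the 2 in the table, and a short stretch around it is printed with the element in capitals.
Arntl (chr7:113207530-113207558): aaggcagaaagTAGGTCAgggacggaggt
No window of Clock, Npas2, Cry2, Nr1d1, Nr1d2 or Dbp held any of the 4 motifs. A match is a description of the letters and not a site of binding, and a window without a match says only that these letters are not in it.

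The table held estimated read counts, 27067349 to 31958793 per tumor, and values are given here as counts per 1000000 of a tumor's total (CPM). At these totals 1 count was worth 0.0313 to 0.0369 CPM. Of the 10 colon epithelial markers looked up to check the label, Krt20 lay between 65.1 and 98.5 CPM, Krt18 between 7.98 and 23.1 CPM and Lgals4 between 5.54 and 8.63 CPM. Epcam lay between 0 and 1.16 CPM, and Cdx1 was at 0 in 4 tumors and at 0.0313 and 0.0323 CPM in the others. Krt8 lay between 0.148 and 2.14 CPM, Krt19 between 0 and 2.49 CPM and Cdh1 between 1.04 and 2.72 CPM. Vil1 lay between 0.0717 and 0.188 CPM and Cdx2 between 0.0688 and 0.313 CPM. Over all genes, groups were compared with edgeR's quasi-likelihood test on 13118 genes, those whose mean reached 0.5 CPM, with Benjamini-Hochberg adjustment over all of them, and log2 fold changes are positive where H89-treated tumors were higher. The exact two-sided permutation test named below compared the mean log2(CPM + 0.5) of 3 tumors with that of 3, and it cannot give a p below 0.1. In a bulk tumor, fewer cells of a type and less RNA per cell cannot be told apart.

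H89-treated tumor 1 stood apart in the clock genes. It had the lowest Arntl and Clock and the highest Per2, Per3, Nr1d1 and Dbp of all 6 tumors, and 5 of the 9 clock genes tested lay more than 0.5 on the log2 scale from the median of the other 5 tumors, against 12.2% of all genes tested in the same tumor. The median distance of the 9 clock genes from that median was 0.52 in this tumor, against 0.17 over all genes tested, and between 0.15 and 0.26 in the other tumors. The same tumor held more RNA of skeletal muscle: the 10 muscle markers summed to 24.2 CPM there and to between 2.72 and 4.13 CPM in the others, 9 of the 10 were highest in it, and Acta1, skeletal muscle actin, stood at 12.1 CPM against at most 0.550. Of 8 adipocyte markers, 5 were highest in it, with a sum of 37.4 CPM against 17.2 to 36.2. Of the 10 colon epithelial markers, 3 (Epcam, Krt8 and Krt19) were highest in it, with Epcam at 1.16 CPM against at most 0.0970. Their sum went the other way and was the lowest in it, at 87.1 CPM against 90.7 to 128 CPM. Krt20, the most abundant of them, was also lowest in it, at 65.1 CPM. The part of these cells in the clock values was not tested. The fold changes of the clock genes tested are therefore also given without H89-treated tumor 1. This tumor was chosen from the values of these same genes. A shift of their fold changes without it follows in part from that choice.

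With all 6 tumors, 0 of the 9 clock genes tested had a Benjamini-Hochberg adjusted p under 0.05 in edgeR's test, where 1.59% of all genes did, and 1 of the 9, Cry1, had an unadjusted p under 0.05, where 25.0% of all genes did. With DESeq2's Wald test, likewise, 0 of the 9 passed the adjusted threshold, where 1396 of the 13118 genes did. An unadjusted p under 0.05 in DESeq2's test was reached by 2 of the 9, Per3 and Cry1. The share of all genes under that p in DESeq2's test is not given here. The groups did not overlap for 1 of the 9, again Cry1, where they did not overlap for 30.5% of all genes (30.6% after TMM scaling between tumors). On the CPM scale 20.5% of all genes lay wholly higher in H89-treated tumors and 10.0% wholly lower. After TMM scaling the same shares were 15.2% and 15.5%, and Cry1 was still the only one of the 9 without overlap. In CPM, sums of markers of several cell types also stood apart between the groups. The 10 colon epithelial markers summed to 114 to 128 CPM with NaCl and 87.1 to 103 CPM with H89. Krt20 carried most of this sum, at 94.0 to 98.5 CPM and 65.1 to 83.8 CPM. Of the 6 colon epithelial markers tested, 4 had a positive log2 fold change and 2 a negative one. The 8 fibroblast markers summed to 2444 to 2599 CPM and 2966 to 3518 CPM. The 7 T cell markers summed to 11.4 to 23.2 CPM and 23.4 to 62.3 CPM. TMM factors of 0.956 for NaCl tumor 1 and 1.03 for H89-treated tumor 2 reverse the order of these tumors in the T cell sum. After TMM scaling 0 of the 7 T cell markers were without overlap. The 10 keratinocyte markers, 2 of them at 0 in all tumors, summed to 44.9 to 72.7 CPM and 15.0 to 18.4 CPM, but Cdsn carried this sum, and without it the other 9 summed to 3.73 to 4.32 CPM and 4.13 to 4.36 CPM, a split made after the values were seen. The part of these cells in the clock gene values was not tested. The median log2 fold change was 0.02 over the 9 clock genes and 0.004 over all genes. Without H89-treated tumor 1 the median of the 9 was -0.10, and 0 of the 9 had an unadjusted p under 0.05. The share of all genes under that p without this tumor is not given here.

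**Figure D1:**
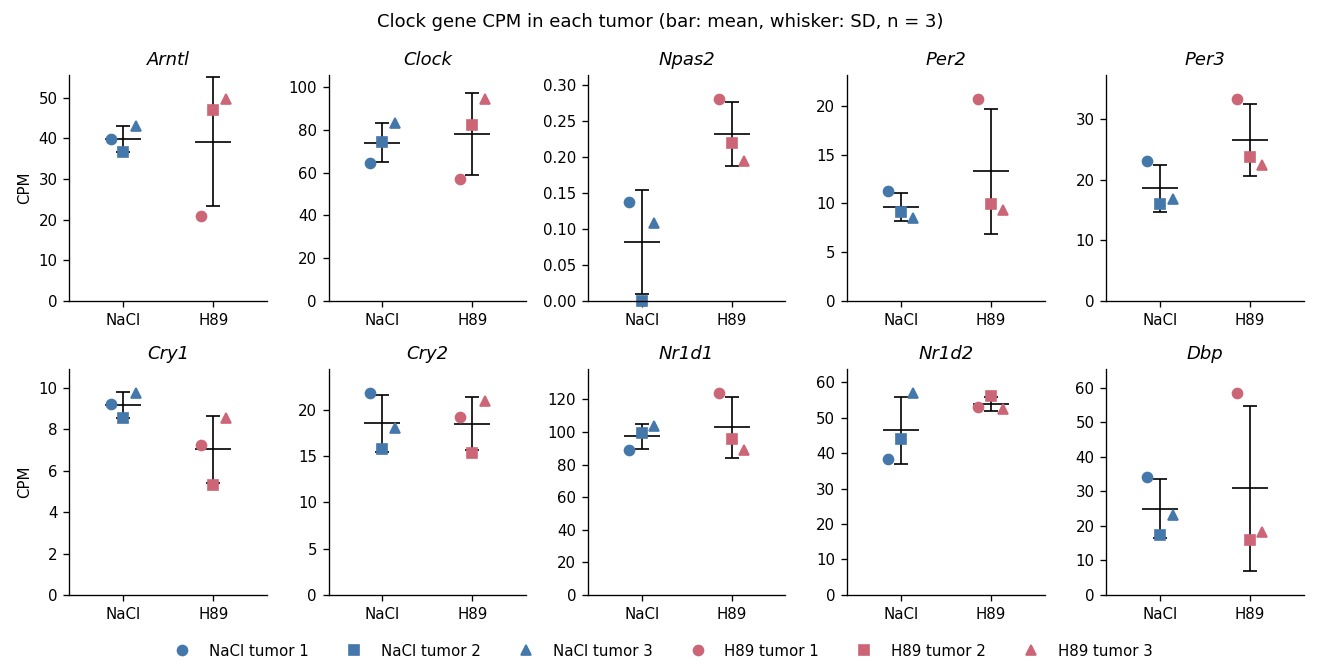
CPM of the 10 clock genes in each tumor, with a panel per gene whose vertical axis starts at 0, NaCl tumors on the left and H89-treated tumors on the right of each panel, the horizontal bar at the group mean and whiskers of 1 SD (n = 3). H89-treated tumor 1, the red circle, is the lowest point for Arntl and Clock and the highest for Per2, Per3, Nr1d1 and Dbp, while the other H89-treated tumors lie among or close to the NaCl tumors for these genes.

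The positive arm of the loop was led in these tumors by Clock and Arntl. Arntl (ENSMUSG00000055116, chr7:113207465-113314126 on the plus strand, GENCODE M21 on GRCm38 as for all genes here) had 39.9, 36.6 and 43.1 CPM in NaCl tumors 1 to 3 and 20.9, 47.0 and 49.7 CPM in H89-treated tumors 1 to 3. H89-treated tumor 1 lay below every other tumor and the other H89-treated tumors above every NaCl tumor, so that the groups overlapped. The log2 fold change of Arntl was -0.11 (95% interval -0.72 to 0.51, edgeR Benjamini-Hochberg adjusted p = 0.828), and it was 0.18 (-0.06 to 0.41, adjusted p = 0.292) without H89-treated tumor 1. The SD of Arntl was 3.25 CPM with NaCl and 15.9 CPM with H89 (n = 3 each). Exons of Arntl share 33 bases in the annotation with Gm45355, a gene on the opposite strand that has no values here.

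Clock (ENSMUSG00000029238, chr5:76209868-76304792, minus strand), the histone acetyltransferase partner of ARNTL, had 64.6, 74.5 and 83.1 CPM in NaCl tumors and 57.2, 82.5 and 94.4 CPM under H89. H89-treated tumor 1 was again the lowest of the 6, H89-treated tumor 3 was the highest, and the groups overlapped. For Clock the log2 fold change was -0.0008 (95% interval -0.37 to 0.37, edgeR Benjamini-Hochberg adjusted p = 0.998), and it was 0.16 (-0.11 to 0.43, adjusted p = 0.410) without H89-treated tumor 1.

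Npas2 (ENSMUSG00000026077, chr1:39193731-39363236, plus strand), which can stand in for CLOCK, was close to the limit of what these libraries could show. It had 4, 0 and 3 counts in NaCl tumors 1 to 3 and 8, 7 and 6 counts in H89-treated tumors 1 to 3. Every H89-treated tumor lay above every NaCl tumor, by 2 counts at the narrowest. The sums were 7 and 21 counts, and a count of 0 in NaCl tumor 2 allows up to 3 counts, or 0.111 CPM. Npas2 did not reach the mean of 0.5 CPM and was not tested with the other 9, and the exact permutation p was 0.1. In edgeR's fit without a filter the unadjusted p of Npas2 was 0.112.

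Per2 and Per3 code for proteins of the repressing complex. Per2 (ENSMUSG00000055866, chr1:91415982-91459324, minus strand) had 11.2, 9.09 and 8.54 CPM in NaCl tumors and 20.7, 9.92 and 9.31 CPM under H89. H89-treated tumor 1 stood far above the rest, and the remaining 5 lay within a narrow range in which the groups overlapped. For Per2 the log2 fold change was 0.41 (95% interval -0.36 to 1.17, edgeR Benjamini-Hochberg adjusted p = 0.470), and it was -0.10 (-0.52 to 0.32, adjusted p = 0.736) without that tumor.

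Per3 (ENSMUSG00000028957, chr4:151003652-151044665, minus strand), the gene with the 2 D-boxes printed above, had 23.0, 15.9 and 16.7 CPM in NaCl tumors and 33.3, 23.8 and 22.5 CPM under H89. H89-treated tumor 1 was the highest, and in CPM the groups overlapped only because NaCl tumor 1 lay between H89-treated tumors 2 and 3. After TMM scaling NaCl tumor 1, at 24.1, lay above both of them, at 23.1 and 21.1. The log2 fold change of Per3 was 0.45 (95% interval -0.06 to 0.95, edgeR Benjamini-Hochberg adjusted p = 0.246, unadjusted p = 0.0751), and it was 0.21 (-0.23 to 0.66, adjusted p = 0.492) without H89-treated tumor 1. Without NaCl tumor 1, left out here after its Per3 value was seen, the log2 fold change was 0.65. Its unadjusted edgeR p was 0.0189 and its adjusted p 0.160. Without NaCl tumor 2 or NaCl tumor 3 it was 0.34 and 0.38, with unadjusted edgeR p of 0.207 and 0.185.

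Cry1 (ENSMUSG00000020038, chr10:85131700-85185064, minus strand), a strong repressor of the ARNTL and CLOCK pair, had 9.22, 8.53 and 9.75 CPM in NaCl tumors and 7.25, 5.32 and 8.53 CPM under H89. All H89-treated tumors lay below all NaCl tumors, though the CPM of NaCl tumor 2 and of H89-treated tumor 3 were equal to 3 digits. After TMM scaling these were 8.61 and 8.03. The log2 fold change of Cry1 was -0.46 (SE 0.19, 95% interval -0.89 to -0.02, unadjusted p = 0.0416, edgeR Benjamini-Hochberg adjusted p = 0.183, exact permutation p = 0.1). Unlike Arntl, Cry1 was lowest in H89-treated tumor 2, and without H89-treated tumor 1 its log2 fold change was -0.51 (-1.03 to 0.005, adjusted p = 0.192). Without H89-treated tumor 2 it was -0.29 with an adjusted p of 0.395.

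Cry2 (ENSMUSG00000068742, chr2:92403646-92434043, minus strand) had 21.8, 15.8 and 18.0 CPM in NaCl tumors and 19.2, 15.3 and 20.9 CPM under H89. The groups lay over each other, with means of 18.5 ± 3.04 and 18.5 ± 2.89 CPM (SD, n = 3 each). For Cry2 the log2 fold change was -0.08 (95% interval -0.47 to 0.32, edgeR Benjamini-Hochberg adjusted p = 0.809), and it was -0.14 (-0.60 to 0.32, adjusted p = 0.673) without H89-treated tumor 1. Exons of Cry2 share 295 bases with the antisense gene D930015M05Rik in the annotation.

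Nr1d1 and Nr1d2 code for nuclear receptors that bind heme and repress Arntl. Nr1d1 (ENSMUSG00000020889, chr11:98767932-98775333, minus strand) had 88.7, 99.6 and 104 CPM in NaCl tumors and 124, 95.7 and 88.7 CPM under H89. H89-treated tumor 1 was the highest, and the other H89-treated tumors lay in the lower part of the NaCl range or at its edge. The log2 fold change of Nr1d1 was 0.02 (95% interval -0.33 to 0.36, edgeR Benjamini-Hochberg adjusted p = 0.962), and it was -0.18 (-0.40 to 0.05, adjusted p = 0.278) without that tumor. Exons of Nr1d1 share 263 bases with Thra, the thyroid hormone receptor alpha gene on the opposite strand, whose log2 fold change was 0.07 (adjusted p = 0.806), and reads of that stretch cannot be assigned to either gene unless strand was used.

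Nr1d2 (ENSMUSG00000021775, chr14:18204054-18239127, minus strand) had 38.3, 43.9 and 57.0 CPM in NaCl tumors and 52.9, 56.1 and 52.3 CPM under H89. H89-treated tumor 1 did not stand out here, and all H89-treated tumors lay between NaCl tumors 2 and 3. For Nr1d2 the log2 fold change was 0.15 (95% interval -0.17 to 0.47, edgeR Benjamini-Hochberg adjusted p = 0.544), and it was 0.13 (-0.26 to 0.51, adjusted p = 0.638) without H89-treated tumor 1.

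Dbp (ENSMUSG00000059824, chr7:45705088-45710203, plus strand), a direct output of the clock, varied most between tumors among the 9 clock genes tested. It had 34.2, 17.4 and 23.2 CPM in NaCl tumors and 58.5, 15.9 and 18.2 CPM under H89, so that the highest tumor was 3.68 times the lowest. H89-treated tumor 1 held the highest value, NaCl tumor 1 the next, and H89-treated tumor 2 the lowest. For Dbp the log2 fold change was 0.26 (95% interval -0.94 to 1.45, edgeR Benjamini-Hochberg adjusted p = 0.787), and it was -0.66 (-1.33 to 0.02, adjusted p = 0.198) without H89-treated tumor 1. Exons of Dbp share 539 bases with Sphk2, a sphingosine kinase gene on the opposite strand. Sphk2 lay between 15.3 and 17.3 CPM in all 6 tumors, with no rise in H89-treated tumor 1.

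**Figure D2:**
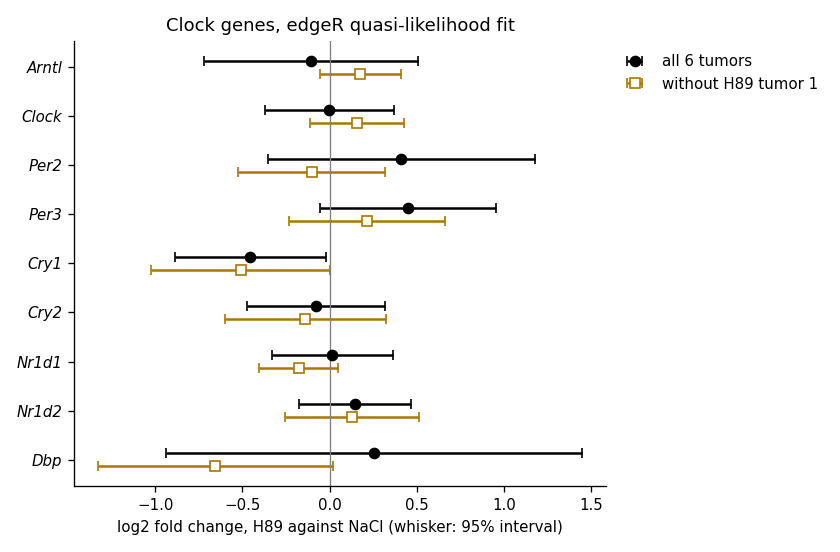
Log2 fold change of H89 against NaCl for the 9 clock genes tested (horizontal axis), from edgeR's quasi-likelihood fit on all 6 tumors (filled circles) and without H89-treated tumor 1 (open squares), with 95% intervals as whiskers. The interval of Cry1 with all tumors, -0.89 to -0.02, is the only one of the 18 drawn that does not hold 0, and the estimates of Arntl, Clock, Per2, Nr1d1 and Dbp lie on opposite sides of 0 in the 2 fits.

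Between genes, levels were compared as CPM per kilobase of merged exons, averaged over the 6 tumors. Nr1d1 was the most abundant at 32.5, with a range of 28.8 to 40.3 over the tumors, above the range of every other clock gene. Dbp at 9.33 and Nr1d2 at 9.26 came next, and their ranges of 5.31 to 19.6 and 7.08 to 10.5 overlapped. Clock at 5.54 and Arntl at 5.26 overlapped as well, and Dbp overlapped both. Cry2 at 2.93, Cry1 at 2.43, Per3 at 2.34 and Per2 at 1.96 followed, and their ranges overlapped each other. Arntl, whose lowest tumor was at 2.78, overlapped all 4 of these, with maxima of 3.45 for Cry2, 2.92 for Cry1, 3.46 for Per3 and 3.54 for Per2. Npas2 was far below at 0.0326. These values depend on the annotated exon length, since the length used by each transcript in these tumors was not measured.

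Genes of the positive and the negative arm were then compared within each tumor, which needs no scaling between tumors. The log2 ratio of Dbp to Arntl, from CPM + 0.5, was -0.22, -1.05 and -0.88 in NaCl tumors 1 to 3 and 1.46, -1.53 and -1.42 in H89-treated tumors 1 to 3. Only H89-treated tumor 1 held more Dbp than Arntl CPM, and its ratio was 7.97 times that of H89-treated tumor 2, the lowest. The mean log2 ratio was -0.72 ± 0.44 with NaCl and -0.50 ± 1.70 with H89 (SD, n = 3 each), a difference of 0.22 that was -0.76 without H89-treated tumor 1.

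The log2 ratio of Per3 to Arntl was -0.78, -1.18 and -1.34 in NaCl and 0.65, -0.97 and -1.13 in H89-treated tumors. That of Nr1d1 to Arntl was 1.14, 1.43 and 1.26 in NaCl and 2.54, 1.02 and 0.83 in H89-treated tumors. That of Per2 to Arntl was -1.78, -1.95 and -2.27 in NaCl and -0.02, -2.19 and -2.36 in H89-treated tumors. For each of these 3 ratios H89-treated tumor 1 was the highest, and the differences between group means, 0.62, 0.18 and 0.48, became 0.05, -0.35 and -0.27 without it. The ratio of Nr1d2 to Arntl was also highest in that tumor, at 1.32 against -0.06 to 0.40 in the others.

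The log2 ratio of Cry1 to Arntl was nearly the same in the 3 NaCl tumors, at -2.06, -2.04 and -2.09, and stood at -1.47, -3.03 and -2.47 in H89-treated tumors. H89-treated tumor 1 lay above the NaCl tumors and the other H89-treated tumors below them, with SDs of 0.03 with NaCl and 0.79 with H89 (n = 3 each). The group difference was -0.26, and -0.69 without H89-treated tumor 1. All these ratios to Arntl share the Arntl value of a tumor and are not independent of each other. The ratio of Nr1d1 to Npas2 was set mostly by the added 0.5 CPM, which was above the Npas2 value of every tumor, and is not read here.

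**Figure D3:**
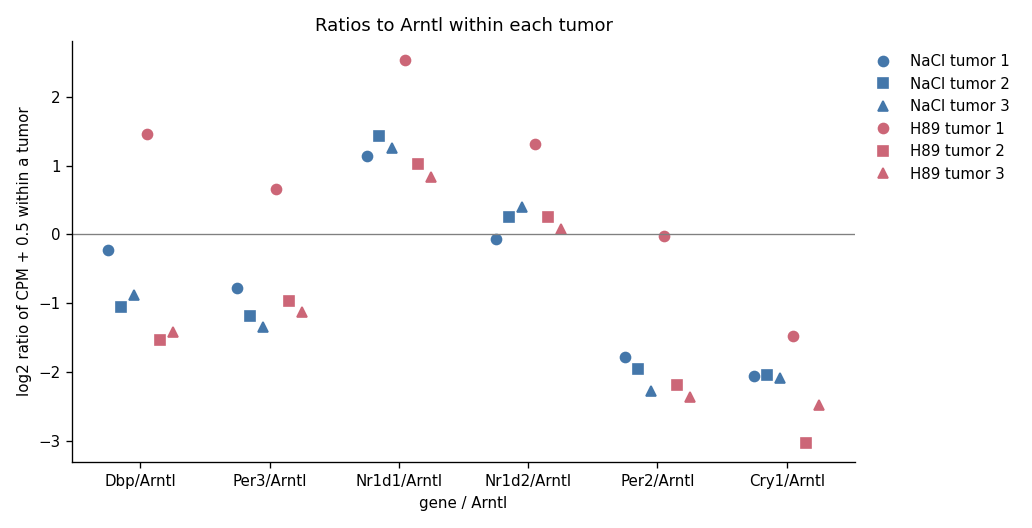
Log2 ratio of 6 clock genes to Arntl within each tumor (vertical axis, from CPM + 0.5), with NaCl tumors in blue and H89-treated tumors in red and a marker shape per tumor number. H89-treated tumor 1 is the highest point for all 6 ratios, for Dbp at 1.46 against -1.53 to -0.22 in the others.

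Tef and Nfil3, of the PAR bZIP family and its competitor, also had their extreme values in H89-treated tumor 1, whereas Hlf did not. Tef, which binds the same D-box as DBP, had 88.0 CPM in H89-treated tumor 1 and between 48.3 and 56.6 CPM in the other 5 tumors. Nfil3, the repressor at these sequences, had 37.7, 32.3 and 41.6 CPM in NaCl tumors and 18.5, 24.0 and 39.7 CPM under H89. Tef was highest and Nfil3 lowest in H89-treated tumor 1, and both groups overlapped. For Nfil3 the log2 fold change was -0.52 (edgeR unadjusted p = 0.0591, Benjamini-Hochberg adjusted p = 0.217) and that of Tef 0.22 (adjusted p = 0.600), and without H89-treated tumor 1 they were -0.33 and -0.14. Hlf, the third activator of the family, lay between 0.550 and 1.58 CPM and was highest in NaCl tumor 3, with 1.33 CPM in H89-treated tumor 1.

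The distance of H89-treated tumor 1 from the median of the other 5 was set beside that of all genes tested in that tumor. Dbp lay 1.66 above on the log2 scale, and 0.198% of all genes lay as far or farther above. Per2 lay 1.11 above (1.02% of genes as far or farther on that side), Tef 0.79 above (2.77%) and Per3 0.56 above (5.94%). Arntl lay 1.03 below (0.839% of genes as far or farther below), Nfil3 1.01 below (0.892%) and Clock 0.52 below (4.44%). NaCl tumor 1 also had a high Dbp, 0.89 above (0.640%). Arntl lay 0.11 below there (44.7% of genes as far or farther below) and Clock 0.35 below (16.8%). In the same tumor Per2 lay 0.26 above (9.50%) and Per3 0.03 above (33.0%), but Nr1d1 lay 0.17 below (36.4%) and Nr1d2 0.46 below (10.0%). Cry2 and Nr1d2 lay within 0.10 of the median in H89-treated tumor 1, so that not all clock genes stood apart there. Nr1d1 lay 0.37 above (11.4%) and Cry1 0.22 below (20.0%) in that tumor. Of other genes of the loop, Ciart lay 0.44 above (9.22%) and Per1 0.09 above (34.4%), while Bhlhe40 lay 0.58 below (3.49%).

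**Figure D4:**
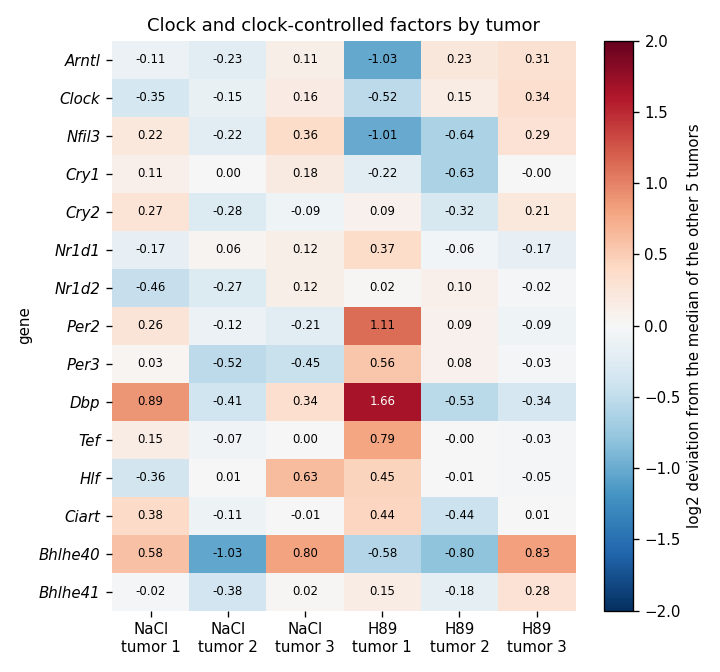
Distance of each tumor (columns) from the median of the other 5 tumors in log2(CPM + 0.5) for 15 clock genes and clock-controlled factors (rows), red above and blue below, with each value printed in its cell. The column of H89-treated tumor 1 holds the strongest colors for Arntl (-1.03), Nfil3 (-1.01), Per2 (1.11), Tef (0.79) and Dbp (1.66).

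Among all genes tested, those whose profile over the 6 tumors lay nearest to that of Dbp were Ndufa4l2, Cnfn, Wdhd1, Agbl5 and Aqp5, by the Euclidean distance of centred log2(CPM + 0.5) values, at 0.56 to 0.83. Nearest to Arntl were Rasal2, Fbh1, Fam78b, Dll1 and Gatad2b, at 0.27 to 0.33. Ndufa4l2, the nearest to Dbp, had 8.91, 4.03 and 5.31 CPM in NaCl tumors and 17.0, 5.19 and 6.56 CPM under H89, and Rasal2, the nearest to Arntl, had 35.0, 35.3 and 44.6 CPM and 22.3, 40.6 and 46.4 CPM. In both, H89-treated tumor 1 took the place it had in the clock gene, which follows from choosing these genes by their likeness. With 6 tumors, such likeness is a description of these libraries.

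In the rest of the clock pathway, 0 genes had a Benjamini-Hochberg adjusted p under 0.05 in edgeR's test. Of the 11 listed partners of the loop, 9 were tested, with 0 at an unadjusted p under 0.05, where 25.0% of all genes were, and their median was -0.02 on the log2 scale. The smallest p values among them belonged to Nono, a partner of PER proteins, at -0.13 (edgeR adjusted p = 0.313), Timeless at 0.19 (0.356) and Arntl2, a paralog of Arntl, at 0.25 (0.408). Of the 13 listed kinases and ubiquitin ligases that act on clock proteins, 11 were tested, and 1, a share below that of all genes, had an unadjusted p under 0.05, and their median was 0.002 on that scale.

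That gene was Csnk1e, which codes for a casein kinase that phosphorylates PER proteins. It had 147, 121 and 143 CPM in NaCl tumors and 106, 111 and 119 CPM under H89. All H89-treated tumors lay below all NaCl tumors. The log2 fold change of Csnk1e was -0.36 (SE 0.10, unadjusted p = 0.00688, edgeR Benjamini-Hochberg adjusted p = 0.0903), and -0.35 without H89-treated tumor 1. Its paralog Csnk1d had a log2 fold change of -0.17 (adjusted p = 0.247), and the ubiquitin ligase Huwe1 had 0.16 (adjusted p = 0.298). Without H89-treated tumor 1 they were at -0.16 and 0.24.

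Of the 12 clock-controlled output genes tested, 1 was higher and 3 were lower at an unadjusted p under 0.05, where 13.1% of all genes were higher and 11.9% lower. Avpi1 had 81.3, 82.4 and 77.0 CPM in NaCl tumors and 65.6, 58.6 and 55.8 CPM under H89. The difference for Avpi1 was -0.49 on the log2 scale (SE 0.10, adjusted p = 0.0609 in edgeR's test), with no overlap between groups, and -0.59 without H89-treated tumor 1. Por, the electron donor of cytochrome P450 enzymes, was at -0.35 (adjusted p = 0.0857), and Pik3r1, a regulatory subunit of PI3 kinase, at 0.26 (adjusted p = 0.107), also without overlap. The third lower gene was Tsku, named for this count after its values were seen, at -0.30 (adjusted p = 0.190). H89-treated tumor 1 was not the most extreme tumor for Avpi1, Por or Pik3r1, but it was the lowest for Tsku, at 16.6 CPM. Without it the log2 fold change of Tsku was -0.28.

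Genes that follow glucocorticoids or body temperature, which set the phase of clocks outside the brain, were read from the same fit. All 9 glucocorticoid-responsive genes tested had a negative log2 fold change, as did 49.4% of all genes, with a median of -0.31. An unadjusted edgeR p under 0.05 was reached by 2 of them, against 11.9% of all genes in that direction. Without H89-treated tumor 1 it was reached by 1, Errfi1, and the share of all genes in that fit is not given here. The 2 were Errfi1 at -0.35 (edgeR Benjamini-Hochberg adjusted p = 0.136) and Mt2, a metallothionein, at -0.77 (adjusted p = 0.149), and Mt1, a close paralog with which Mt2 could share reads, was at -0.74 (adjusted p = 0.203). Mt2 had 644, 384 and 490 CPM in NaCl tumors and 266, 220 and 458 CPM under H89, and the groups overlapped. Without NaCl tumor 1 the log2 fold changes were -0.54 for Mt2 and -0.35 for Mt1.

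With all tumors, the 8 temperature-responsive genes also had negative log2 fold changes, where 49.4% of all genes did, and their median was -0.11. In the same fit 0 of the 8 had an unadjusted edgeR p under 0.05, where 25.0% of all genes did. Without H89-treated tumor 1 it was again 0 of the 8, and the shares of all genes in that fit are not given here. Cirbp and Hspa1a turned positive without that tumor, at 0.03 and 0.18. The others stayed negative, and the median of the 8 was -0.16. With all tumors, the cold-induced Rbm3 was at -0.14 (edgeR adjusted p = 0.358). The heat shock genes Dnajb1 and Hsp90aa1 were at -0.34 (adjusted p = 0.304) and -0.13 (adjusted p = 0.471). Rbm3 and Hsp90aa1 turned to 0.03 and 0.08 under quantile normalization, so that their sign depended on the scaling between tumors.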

How the data were processed

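Total RNA of 6 CT26 tumors was sequenced on the BGISEQ-500 platform. The authors deposited 1 table of estimated counts per gene, named as TPM, but its values summed to 27067349 to 31958793 per tumor, and 58.6% to 61.4% of those above 0 lay within 0.01 of a whole number. The submitters' processing notes name kallisto, DESeq2 and GRCm38, and their versions and the annotation are not given in the sources used here. Of the gene columns, 146 were recorded one by one and 23411 were read in the same way. Counts were rounded to whole numbers and fitted with edgeR 4.0.16 in R 4.3.3 (TMM, glmQLFit, glmQLFTest, treatment as the only term, mean of at least 0.5 CPM, threshold 0.05). The standard error is the log2 fold change divided by the root of the F statistic, and intervals use the fitted degrees of freedom. CPM values use the total count, and fold changes the TMM factors, 0.956 to 1.06. The fit was tested on simulated data.

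Alternatives were limma 3.58.1, DESeq2 1.42.0, other filters, scalings and pseudocounts, a replicate block and leaving out each tumor. Replicates differed by more than sampling noise, with a median chi-square per gene of 2.88 to 7.69 between tumors of the same group. Between tumors of different groups it reached 11.7. Nothing states a batch or date. Positions are those of GENCODE M21, by symbol. The clock genes and all lists were chosen with earlier results of these data known. The text names all clock genes and, of each other pathway list, genes past the adjusted threshold or otherwise the 3 with the smallest p, plus the 5 nearest profiles to Dbp and to Arntl and genes overlapping a clock gene. Intervals and floors of counts cover counting error only where they rest on counts. With 3 tumors a group, edgeR's p-values set a difference against the spread between these tumors, which is estimated in part over all genes tested.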

Additional observations from a re-analysis of the deposited data

How the results depend on the processing

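Across 14 alternatives to the fit, 0 of the 9 clock genes had a Benjamini-Hochberg adjusted p under 0.05 in any. The number with an unadjusted p under 0.05, 1 in the fit reported, was 0 with a mean of at least 5 CPM, 2 with DESeq2 and 0 to 2 with a tumor left out. It was 0 without NaCl tumor 2, without H89-treated tumor 1 and without H89-treated tumor 2, and 2 without H89-treated tumor 3. The share of all genes under that unadjusted p is given here only for the fit reported. Over all genes, the 208 past the adjusted threshold were 80 under quantile normalization with limma, 1396 with DESeq2 and between 0 (without NaCl tumor 2, NaCl tumor 3, H89-treated tumor 1 or H89-treated tumor 2) and 12 (without H89-treated tumor 3), with 2 without NaCl tumor 1. In the other pathway lists, the 0 genes past that threshold were 1 without a filter (Avpi1) and 3 with DESeq2 (Avpi1, Por and Csnk1e). The cause of these shifts was not tested.

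Signs of small fold changes turned with the setting. Clock was at 0.0190 under quantile normalization and 0.0323 with a mean of at least 5 CPM. With voom, Nr1d1 was at -0.00635, Dbp at -0.00453 and Hlf at 0.0111. Under quantile normalization Nono was at 0.00739, Rbm3 at 0.0274 and Hsp90aa1 at 0.0810. With each tumor left out in turn the log2 fold change lay between -0.29 and 0.18 for Arntl, -0.13 and 0.16 for Clock, -0.10 and 0.63 for Per2, -0.19 and 0.0742 for Cry2, -0.18 and 0.13 for Nr1d1, -0.66 and 0.58 for Dbp, -0.14 and 0.38 for Tef and -0.36 and 0.44 for Hlf. Per3, Cry1 and Nr1d2 had 1 sign in all 14 alternatives. The difference in the log2 ratio of Cry1 to Arntl lay between -0.69 and 0.0905 with a tumor left out, and that of Nr1d1 to Npas2 was -0.27 with a pseudocount of 0.5 CPM and -0.89 with a pseudocount of 0.1 CPM. It could not be computed without a pseudocount, because Npas2 was at 0 in NaCl tumor 2. The cause was not tested.

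The labels number the tumors 1 to 3 in both groups. Deviations from the group means correlated at 0.164, 0.0629 and -0.0256 between tumors of the same number, and NaCl tumor 2 correlated more with H89-treated tumor 1 than with its own number, so that the numbers were not taken as a pairing. With the number as a replicate block, 0 genes passed the adjusted threshold, 2 clock genes (Per3 and Cry1) had an unadjusted p under 0.05, and Nr1d1 was at -0.00490. With 3 tumors a group, intervals as wide as that of Dbp leave changes of more than 1 on the log2 scale in range.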
